A study of Mus musculus with 11 samples.

Results

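These regions gained acetylation of histone H3 at lysine 27 (H3K27ac) in atrial cardiomyocyte nuclei of Tbx5G125R mice from a weak level in controls. They were chosen by 2 values of the deposited table of differentially acetylated regions, the mean over the control libraries and the mean over the Tbx5G125R libraries. A region was included when its Tbx5G125R mean was above its control mean and its control mean was at least 1 and under 5 normalised reads. This rule took 530 of the 1652 regions listed, and 530 of the 1339 whose mean was higher in Tbx5G125R. Of the other gains, 387 had a control mean under 1 and 422 a control mean of 5 or more, while 313 regions were lower in Tbx5G125R. Because the genotype difference selected on is the one measured, all levels and ratios of these regions are given as a description without a test.

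H3K27ac was mapped by CUT&RUN, in which an antibody against the mark directs a nuclease to release the chromatin that carries it. The question was which regulatory regions change their activity when 1 allele of Tbx5 encodes the G125R protein. There were 6 libraries from Tbx5G125R mice and 5 from control mice, and both genotypes were 8 to 12 weeks of age. Tbx5G125R mice were heterozygous for a germline missense change in every cell, made by genome editing, and the labels call the other animals controls without further detail. Left and right atria were pooled, so the sides cannot be told apart. Nuclei were sorted for pericentriolar material 1 (PCM1), a protein found at the nuclear envelope of cardiomyocytes, and no other cell type was sorted.

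H3K27ac is deposited by the acetyltransferases p300 and CBP at active promoters and enhancers, and nucleosomes at idle regulatory elements usually lack it. Tbx5 is a T-box transcription factor needed for septation of the heart, for the conduction system and for atrial rhythm. T-box factors bind short DNA elements with the core AGGTGT, often beside sites of GATA4 and NKX2-5. A rise in H3K27ac at a region with little of the mark is commonly read as the opening of a regulatory element, although the mark alone does not name the gene it acts on.

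Values are normalised read counts of the top bin, the 500 bp window of each region that was most significant in the authors' test. They equal whole reads divided by 1 size factor per library. One read was worth 0.681 to 1.95 normalised reads in control libraries and 0.489 to 2.19 in Tbx5G125R libraries. A control mean between 1 and 5 therefore rested on few reads. Over all 5 control libraries the regions held 3 to 31 reads with a median of 11, against 134 to 1129 reads with a median of 238 over the 6 Tbx5G125R libraries.

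To show the promoters that these top bins touch, the sequences of Pdgfra, Dop1a, BC052040, Ddx18 and Svep1 are printed. The first 3 are those that hold a T-box core, Ddx18 is an example with KLF/SP boxes only, and Svep1 holds neither and belongs to the regions with the largest ratios. Each runs 5′ to 3′ on the strand of its gene, from 250 bases before to 50 bases after the start, and comes from RefSeq (GRCm38.p6, the same assembly as mm10). Capitals mark the T-box core AGGTGT and the KLF/SP box GGGCGG, each on either strand.
Pdgfra promoter, chr5:75152001-75152300, plus strand: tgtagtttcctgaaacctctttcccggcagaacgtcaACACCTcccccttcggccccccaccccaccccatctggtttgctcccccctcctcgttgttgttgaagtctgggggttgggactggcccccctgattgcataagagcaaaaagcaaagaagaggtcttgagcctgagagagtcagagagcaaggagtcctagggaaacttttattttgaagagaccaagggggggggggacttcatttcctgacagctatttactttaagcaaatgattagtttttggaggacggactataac
Dop1a promoter, chr9:86466904-86467203, plus strand: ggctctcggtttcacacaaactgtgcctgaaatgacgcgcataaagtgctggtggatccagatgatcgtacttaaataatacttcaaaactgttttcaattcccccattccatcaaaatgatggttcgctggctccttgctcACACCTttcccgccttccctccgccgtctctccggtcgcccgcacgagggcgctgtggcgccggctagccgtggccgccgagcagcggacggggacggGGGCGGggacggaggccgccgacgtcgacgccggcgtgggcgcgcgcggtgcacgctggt
BC052040 promoter, chr2:115581466-115581765, plus strand: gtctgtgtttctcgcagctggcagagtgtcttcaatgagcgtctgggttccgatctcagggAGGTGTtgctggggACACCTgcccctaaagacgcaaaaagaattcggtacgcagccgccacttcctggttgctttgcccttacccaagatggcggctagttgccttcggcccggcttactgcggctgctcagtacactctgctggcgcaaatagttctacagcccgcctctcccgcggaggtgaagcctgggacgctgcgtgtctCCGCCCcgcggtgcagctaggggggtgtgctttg
Ddx18 promoter, chr1:121567931-121568230, minus strand: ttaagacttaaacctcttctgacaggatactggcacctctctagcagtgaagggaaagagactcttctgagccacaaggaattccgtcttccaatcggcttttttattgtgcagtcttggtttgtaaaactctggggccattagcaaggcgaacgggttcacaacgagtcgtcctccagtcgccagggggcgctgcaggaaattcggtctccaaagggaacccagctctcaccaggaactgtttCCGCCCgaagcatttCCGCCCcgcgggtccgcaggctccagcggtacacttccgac
Svep1 promoter, chr4:58206547-58206846, minus strand: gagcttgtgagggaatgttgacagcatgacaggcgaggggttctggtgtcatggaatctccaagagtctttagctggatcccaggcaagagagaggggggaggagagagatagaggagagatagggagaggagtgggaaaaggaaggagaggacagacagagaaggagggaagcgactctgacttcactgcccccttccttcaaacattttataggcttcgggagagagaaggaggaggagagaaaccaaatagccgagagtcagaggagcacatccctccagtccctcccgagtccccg

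The Pdgfra promoter lies whole in its top bin and holds 1 T-box core, which starts 38 bases from the first base printed. The promoter of Dop1a, also whole in its bin, holds 1 core that extends to the longer element AGGTGTGA on the reverse strand. BC052040 holds 2 cores, at bases 62 and 76, but only its first 35 bases overlap the bin, so both cores, the KLF/SP box and the start lie outside it. Among the 12 protein-coding promoters that these top bins touch, 3 held AGGTGT on either strand (25%, 95% Wilson interval 8.89 to 53.2), against 12.7% of 21238 RefSeq promoters of the same length. With 79 promoters that met the whole regions the share was 16.5% (13 promoters). The box GGGCGG was present in 8 of the 12 (66.7%, interval 39.1 to 86.2) and in 59 of the 79 (74.7%), against 46.2% of all promoters. For both motifs the wide interval at 12 promoters includes the share over all promoters. The intervals treat promoters as independent, although the 12 belong to 11 genes, and are a description without a test. The GC content of the 12 had a median of 60.5%, and that of all promoters a median of 56.3%. The 2 motifs cannot share bases with each other, neighbouring copies of GGGCGG can share bases, and a match is a description of letters, not a binding site.

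No MEF2 element, CTA and TAG set 4 bases apart, was found in the 79 promoters, against 3.47% of all promoters. AGATAA, the GATA core, was held by 2 of the 79 (2.53%), against 9.65% of all. TGANTCA, the AP-1 element, was held by 2 as well (2.53%), against 6.99%. For TEAD (GGAATG, 13.9% against 13.6%) and NKX2 (CACTTNA, 12.7% against 10.8%) the 2 shares lay within 2 percentage points. The myogenic E-box CAGCTG was in 8 of the 79 (10.1%, against 15.6%), and the SRF core, CC and GG set 6 bases apart and thus a loose pattern, in 66 (83.5%, against 77.3%). The other classes of region showed part of the same pattern. In 151 promoters met by the other gains GGGCGG was held by 60.3%, AGATAA by 3.97%, TGANTCA by 1.99% and the MEF2 element by 5.96%. In 44 promoters met by decreased regions the shares were 52.3%, 9.09%, 4.55% and 2.27%. Median GC content was 62.7% in the 79 promoters, 62.0% with the other gains and 60.8% with decreased regions, and the shares were set side by side without a test.

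One region on chromosome 9, 14500 bp wide with no protein-coding gene within 100 kb of its top bin, contains the microRNA gene Mir125b-1. Its mature products are shown because they are the only RefSeq microRNAs located in any of the 530 regions. Sequences are from RefSeq (GRCm38.p6), and capitals mark the seed, bases 2 to 8.
mmu-miR-125b-5p, chr9:41581940-41581961, plus strand: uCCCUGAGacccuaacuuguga
mmu-miR-125b-1-3p, chr9:41581980-41582001, plus strand: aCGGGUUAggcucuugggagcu

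The top bin of this region (mm10, chr9:41588751-41589250) held 8.52, 5.45, 4.50, 2.77 and 0 normalised reads in control libraries 1 to 5. In Tbx5G125R libraries the lowest value was 11.3, the median 34.0 and the highest 63.4. All Tbx5G125R libraries were above all control libraries. Control libraries averaged 4.25 ± 3.16 (SD, n = 5) and Tbx5G125R libraries 33.3 ± 18.5 (SD, n = 6), a ratio of 7.84. The 2 products have different seeds, and their RNA levels were not measured by this assay.

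Across the 530 regions the median control mean was 2.18 normalised reads, with quartiles at 1.53 and 3.22. The Tbx5G125R mean had a median of 28.2 and ran from 16.9 to 136. The ratio of the means had a median of 13.3 (10.2 to 16.8) and ran from 5.94 to 63.9. Within these limits the upper quartile of the Tbx5G125R level was 35.1 against a lower quartile of 23.8, a narrow band beside a range that ends at 136. Gains with a control mean under 1 reached a lower median Tbx5G125R level, 18.9, and gains with a control mean of 5 or more a higher one, 73.9. In the plot of group means the 3 classes of gain form a continuous band with no gap at either limit of the rule.

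**Figure D1:**
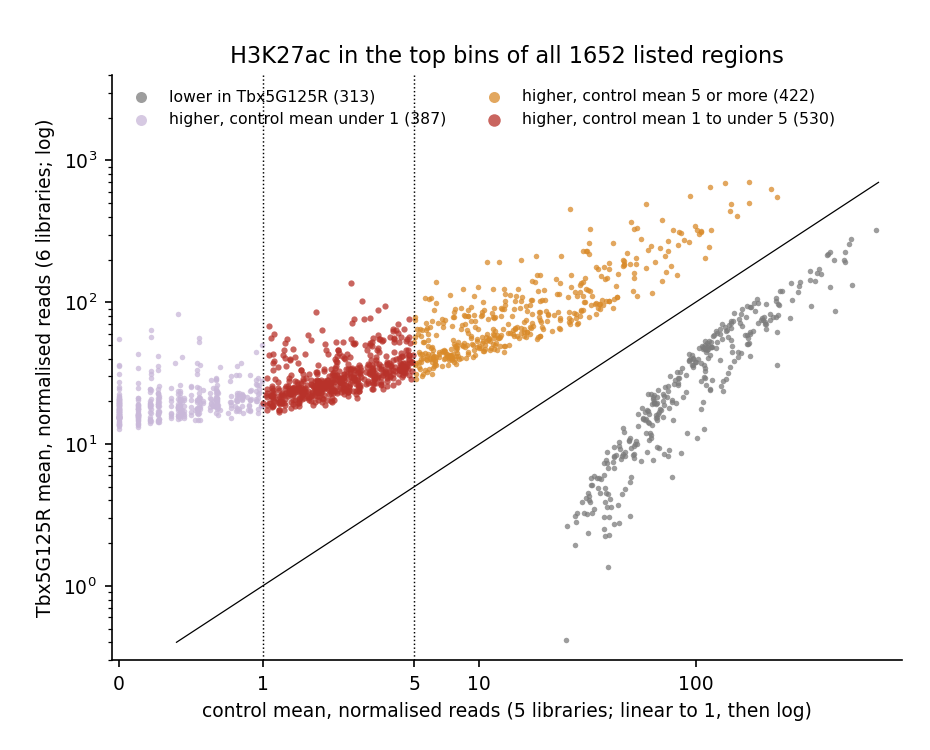
Control mean (x axis, normalised reads, linear to 1 and logarithmic above) against Tbx5G125R mean (y axis, normalised reads, logarithmic) for the top bin of each of the 1652 listed regions, with 1 point per region. Dotted lines mark control means of 1 and 5, the solid line marks equal means, and the 530 regions described here (red) lie between the dotted lines at Tbx5G125R means from 16.9 to 136.

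At the lower limit of the rule, the regions just inside were those at Kcnt2 (control mean 1.00) and Adamtsl3 (1.03), with Tbx5G125R means of 19.6 and 22.3. Just outside it were Anp32a and Tpcn2, both with a control mean of 0.995 and with Tbx5G125R means of 49.8 and 27.9. At the upper limit, a region 207 kb from Hlx (4.90) and one in Ldb2 (4.92) were just inside, with Tbx5G125R means of 33.0 and 42.8. Sik2 (5.01) and Lats2 (5.02) were just outside, with Tbx5G125R means of 52.4 and 36.0. On either side of each limit the control means were nearly the same, so the limits cut through like regions.

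The weak control signal was unevenly spread over the control libraries. Reads were present in 1 control library in 30 regions, in 2 in 194, in 3 in 212, in 4 in 83 and in all 5 in 11. In 366 regions (69.1%) over 50% of the summed control level came from 1 library and in 30 (5.66%) all of it did. The median over control libraries was 0 in 224 regions (42.3%). In Tbx5G125R, 523 regions had reads in all 6 libraries. The library with the highest control level was replicate 1 in 131 regions, replicate 2 in 145, replicate 3 in 107, replicate 4 in 112 and replicate 5 in 35, so no single control library supplied the signal. Across regions, log2 levels correlated at -0.18 to -0.04 between control libraries (10 pairs) and at -0.01 to 0.36 between Tbx5G125R libraries (15 pairs). These correlations run over 530 regions chosen within a narrow control range, which forces high values of 1 control library to go with low values of the others.

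Control replicate 5 stood apart. It was the shallowest control library (27118 reads in all listed top bins, against 35393 to 72442 in the others), and 1 of its reads was worth 1.95 normalised reads. It had no read in 451 of the 530 regions (85.1%), against 17.5 to 48.3% in control replicates 1 to 4. A floor of 3 reads in this library corresponds to 5.85 normalised reads, above the upper limit of the rule, against 2.04 to 4.15 in the other controls. Single-library control values of 1 or 2 reads therefore carry little precision. At the 422 gains with a control mean of 5 or more its median level was 5.85, against 13.8 to 16.4 in the other controls, while at the 313 decreased regions its median, 105, was the highest of the controls. Among Tbx5G125R libraries replicate 5 was the shallowest (43183 reads, against 84686 to 161738) and had the highest median over the 530 regions, 32.8, against 25.9 to 27.9. It was the highest of the 6 in 195 regions. The part of depth in these differences was not tested.

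**Figure D2:**
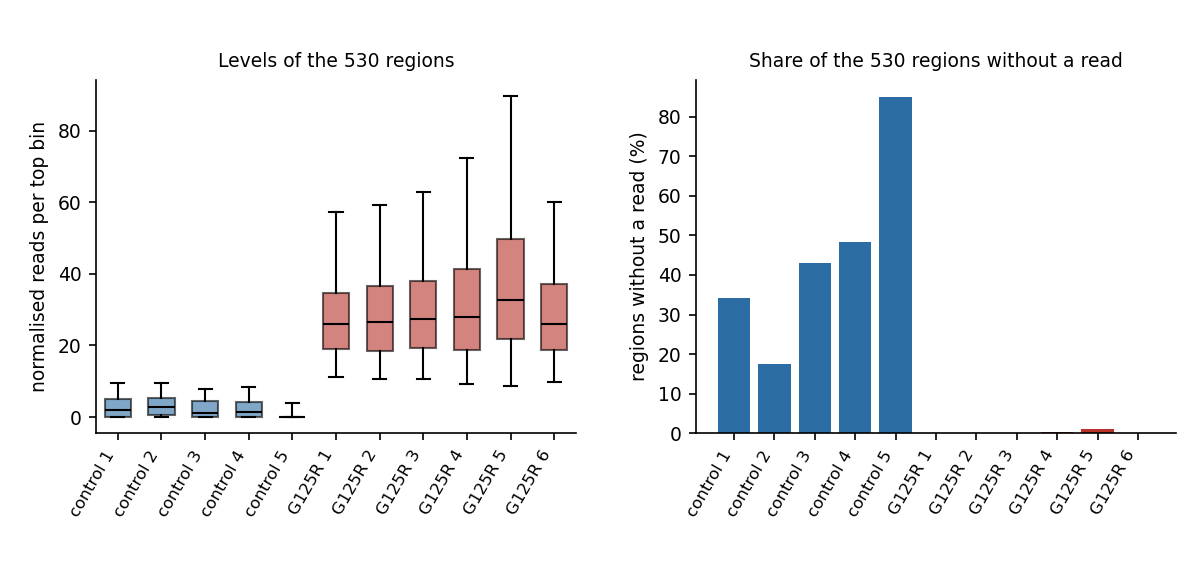
Left, normalised reads per top bin (y axis) over the 530 regions for each control (blue) and Tbx5G125R (red) library, with the box from the first to the third quartile, the line at the median and whiskers at the 5th and 95th percentiles. Right, the share of the 530 regions without a read in each library (y axis, %), which was 17.5 to 85.1% in controls and at most 0.943% in Tbx5G125R libraries.

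In 490 of the 530 regions (92.5%) every Tbx5G125R library was above every control library, against 73.2% of all 1652 listed regions, which include the decreased ones. In the remaining 40 a single Tbx5G125R library was at or below the highest control library. The count test of edgeR on the recovered reads, which measures the difference that the rule used, called 522 regions higher in Tbx5G125R and none lower at an adjusted p threshold of 0.05, against 74.0% called higher among all listed bins. The 8 that it did not call were at Ccdc57, Sox5, BC052040, Ube2e1, Rbpj, Nrp1 and Cdh22 and at 1 site without a gene within 100 kb. Since the choice of regions fixes this direction, nothing is read from these counts. Both counts depended on the scaling. The factors were also recomputed by the trimmed mean of M values (TMM) on the listed bins, of which most are gains. With TMM factors 9 of the 530 regions were called higher, against 146 of all 1652 listed bins, and 81 of the 530 had separate groups. These factors lowered the log2 fold of the listed bins by a median of 1.70 and reduced the share of higher among all called bins from 85.1% to 31.8%. The median ratio of the 530 regions was 3.88 with TMM factors, and no region changed its direction.

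Within genotypes the spread was wide. The coefficient of variation over libraries had a median of 135% in controls and 44.2% in Tbx5G125R. The highest Tbx5G125R library exceeded the lowest by a median factor of 3.58 among the 523 regions with reads in all 6. In 381 regions (71.9%) every Tbx5G125R library was above 10 normalised reads, and in 35 (6.60%) at least 1 was at 5 or below. A rule on the median of the libraries in place of the mean took 308 regions, of which 262 belonged to the 530. Membership of single regions therefore depended on how the few control reads were averaged.

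The highest Tbx5G125R level was at a distal region 95.5 kb from Negr1, a neuronal cell adhesion molecule of the immunoglobulin superfamily (top bin chr3:156465751-156466250). Control libraries 1 to 5 held 12.8, 0, 0, 0 and 0 normalised reads, that is 12 reads in replicate 1 and none elsewhere. In Tbx5G125R the lowest library had 79.9, the median was 152 and the highest had 173. The groups did not overlap, and the means were 2.56 ± 5.72 (SD, n = 5) and 136 ± 39.9 (SD, n = 6). The second-highest region (chr4:131132251-131132750) had no protein-coding gene within 100 kb, the nearest being Matn1 at 177 kb. Its controls held 0, 14.3, 0, 0 and 0 and its Tbx5G125R libraries 33.3 to 210 with a median of 96.4. Again 1 control library carried all control reads, and the Tbx5G125R libraries differed among themselves by more than in the region near Negr1.

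Sec16b encodes a protein of endoplasmic reticulum exit sites. At the region in this gene (chr1:157518251-157518750) controls held 2.13, 12.3, 1.12, 2.77 and 0. The Tbx5G125R libraries had a median of 94.4 and a highest value of 193, but replicate 5 had no read, so the groups overlapped. The mean rose from 3.66 ± 4.92 to 93.9 ± 65.4. A region 30.3 kb from Golim4, which encodes a Golgi membrane protein, had all its 25 control reads in replicate 2 (17.0 normalised reads), and 45.4 to 165 in Tbx5G125R (median 72.5). A second region, 0.795 kb from Golim4, had a control mean of 3.52 and a Tbx5G125R mean of 26.6, so the locus held a stronger distal and a weaker proximal gain.

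At Otol1, which encodes a collagen-like protein of the inner ear, the region lay 2.79 kb outside the gene. Controls held 0, 5.45, 3.37, 0 and 0, and Tbx5G125R libraries 49.6 to 153 with a median of 76.7, a ratio of 48.1. Fstl4, a follistatin-like gene, carried a region within its body with controls at 0, 6.13, 6.75, 2.77 and 0 and Tbx5G125R at 24.6 to 124.7 (median 77.9). Tbrg4, which encodes a mitochondrial RNA-binding protein, had a region 4500 bp wide that covers its promoter, with the top bin 0.917 kb outside the gene. Its controls held 6.39, 5.45, 0, 2.77 and 0, and Tbx5G125R 35.0 to 115 (median 79.2). In these 3 regions at least 2 control libraries held reads and the genotypes did not overlap.

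Il1r1 encodes the receptor of interleukin 1. The region in this gene had 12.46 normalised reads in control replicate 4, 0.681 in replicate 2 and none in the others, and 44.9 to 118 in Tbx5G125R (median 70.3). Nearly all control signal was again in 1 library. At Ctnna3, which encodes alpha-T-catenin of the intercalated disc, the strongest region (chr10:64039751-64040250) also overlaps Lrrtm3, a nested gene of a synaptic adhesion protein, and the signal cannot be assigned to either. Its controls held 0, 12.9, 0, 0 and 0, and Tbx5G125R 55.7 to 102 (median 59.5).

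**Figure D3:**
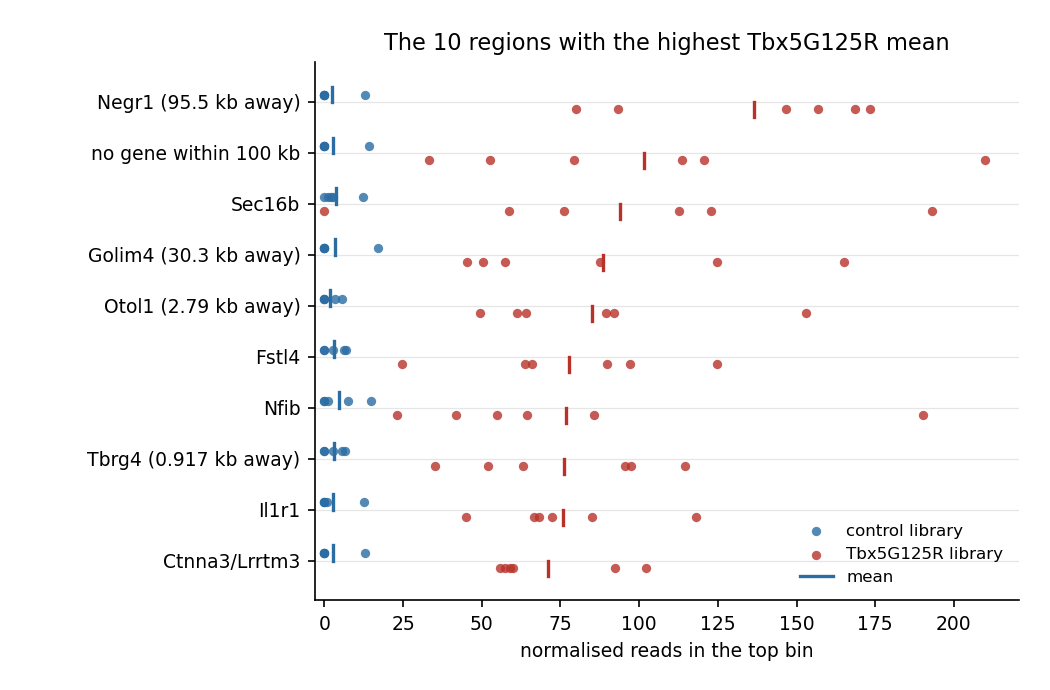
Normalised reads in the top bin (x axis) of the 10 regions with the highest Tbx5G125R mean (y axis, labelled by gene and distance), with 1 point per control library (blue) and Tbx5G125R library (red) and a vertical bar at each mean. All Tbx5G125R libraries lie above all control libraries except at Sec16b, where 1 Tbx5G125R library has no read.

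Large ratios outside those regions were at the low end of the control range. Galnt9, which encodes an O-glycosyltransferase, had 5.62 normalised reads in control replicate 3 only and 33.0 to 96.3 in Tbx5G125R (median 55.2), a ratio of 52.7. A neighbouring region in Galnt9 rose from a control mean of 4.35 to 41.2. In Svep1, the gene of an extracellular matrix protein whose promoter is printed above, the bin held 5.45 in control replicate 2 only and 21.7 to 89.4 in Tbx5G125R (median 56.2), a ratio of 51.4. Ratios of this size divide by 5 to 8 control reads from 1 library, and the Tbx5G125R level is the more precise value. Smaller ratios followed at Cyria (42.5), Pom121l12 (41.0) and Wdfy4 (39.9).

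By count, transcription factors formed the largest group among the gene lists examined. Of 151 annotated genes on a list of other developmental factors, 14 had 15 of these regions, while 1 gene of the list had a decreased region. All 15 had separate groups, with a median Tbx5G125R mean of 27.2. Groups were separate in 92.5% of all 530 regions, and in 87.9% and 89.8% of the weaker and stronger other gains. Nothing is therefore read from the counts of separate groups per list, here and below. Of 73 cardiac factors, 5 had 7 of these regions, again all separate (median 29.8), whereas 11 had 13 decreased regions. The cardiac list thus held more decreased regions than regions of this class, and the wider developmental list held the reverse. This sets 1 class of gain against all losses. The weaker and stronger other gains added 2 and 5 regions to the cardiac list, and 6 and 5 to the developmental list. Counts of this class beside losses therefore do not give the balance of a list, here and below. Over all 530 regions the median Tbx5G125R mean was 28.2.

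Nfib, a member of the nuclear factor I family, had the strongest of these regions (chr4:82344501-82345000). Its controls held 14.9, 7.49, 1.12, 0 and 0, and its Tbx5G125R libraries 23.0 to 190 with a median of 59.6. The highest value came from replicate 5, without which the other libraries ended at 85.7.

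Foxp2, a forkhead gene, had 2 regions, 1 of them 1.10 kb outside the gene with controls at 2.13, 1.36, 3.37, 4.15 and 0 and Tbx5G125R at 19.6 to 70.9 (median 37.6). The other, in the gene body, rose from 1.53 to 22.5. Zfpm2, which encodes the GATA cofactor FOG2, had 2 regions in its body. In the stronger one all 5 controls held reads (4.26, 3.41, 6.75, 5.54 and 1.95), and Tbx5G125R ran from 18.1 to 54.7 (median 25.5). This evenness across controls was uncommon, as only 11 regions had no control library at 0. The second Zfpm2 region rose from 3.88 ± 2.99 to 29.5 ± 13.7. Tbx2, a T-box repressor of the atrioventricular canal, rose from 2.61 to 29.2 at 3.55 kb. The region in Sox5, not called by the count test, had means of 4.37 and 32.7.

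Among the other developmental factors, Sox9 had a region 62.7 kb away with controls at 2.13, 0, 0, 15.2 and 3.90 and Tbx5G125R at 16.6 to 64.8 (median 40.2). The lowest Tbx5G125R library was only just above the highest control. Gli2, an effector of Hedgehog signalling, carried 2 regions in its body. In the stronger the controls held 1.07, 0, 0, 9.69 and 0 and Tbx5G125R libraries 21.8 to 63.7 (median 37.1). In the other the mean was 1.10 in controls and 23.5 ± 5.65 in Tbx5G125R. Ebf1, Eya4, Zeb1, Snai2, Trps1, Tcf4, Foxo1, Tshz1, Tcf7l2 and Rora had Tbx5G125R means from 22.0 to 34.4. Several of these genes act in mesenchyme and neural crest, and the table does not report their RNA.

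**Figure D4:**
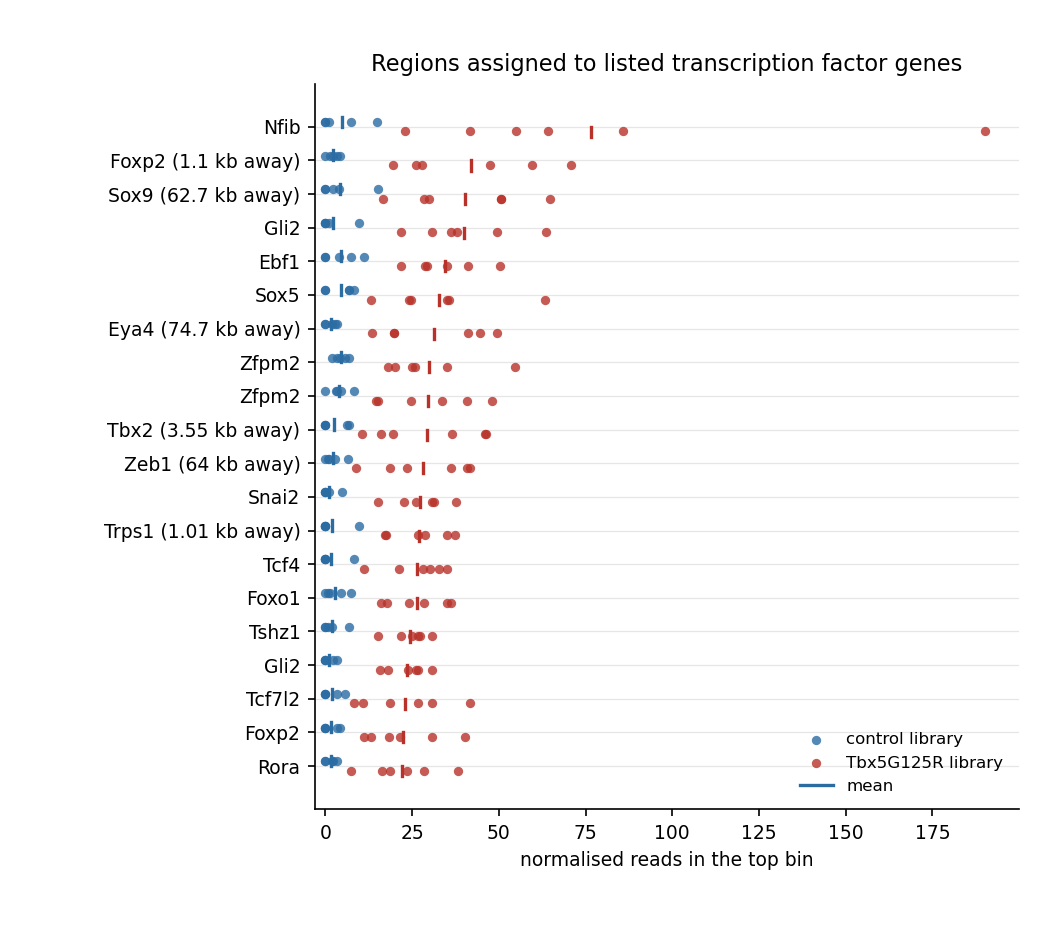
Normalised reads in the top bin (x axis) of 20 regions assigned to listed transcription factor genes (y axis, with the distance where the bin lies outside the gene), 1 point per library, blue for control and red for Tbx5G125R, with a bar at each mean. The groups are separate in all 20 regions shown and lie closest at Sox9, where the lowest Tbx5G125R library is at 16.6 and the highest control at 15.2.

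Bone morphogenetic protein (BMP) and transforming growth factor beta genes had 6 regions at 6 of 70 listed genes, all with separate groups, against 2 genes with a decreased region. They covered a receptor (Bmpr2, from 1.25 to 17.5), an effector (Smad1), an inhibitor (Smad6) and the extracellular modulators Bmper, Fstl4 and Ltbp1. Smad6 restrains BMP receptors, and its region, 42.9 kb away, had controls at 4.26, 5.45, 0, 1.38 and 0 and Tbx5G125R at 17.7 to 77.1 (median 49.9). Smad1 held 1.07, 7.49, 0, 5.54 and 0 in controls and 17.5 to 72.2 in Tbx5G125R (median 21.7). Bmper, which encodes a secreted BMP-binding protein, rose from 4.0 ± 4.84 to 33.3 ± 18.5. Members and antagonists of the same pathway were thus both present.

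Of 111 genes of the Wnt, FGF, Notch, Hedgehog and EGF families, 7 had 8 of these regions, 7 of them separate, and 3 had decreased regions. Fgf10, a growth factor of the second heart field, had a region 7.43 kb away with controls at 3.20, 2.04, 1.12, 0 and 0 and Tbx5G125R at 10.9 to 54.2 (median 37.0). At Fgf2 the Tbx5G125R libraries ran from 8.32 to 51.1, and the lowest lay below the highest control, 8.52, so this was the region with overlap. Spry1, an inhibitor of FGF signalling, had 2 regions with means from 3.74 to 29.3 and from 2.75 to 31.9. At Rbpj, the DNA-binding partner of Notch, the means were 4.42 and 30.5, and the count test did not call it. Nrg2, Spry4 and Wnt5b completed the group at Tbx5G125R means of 22.8 to 29.9.

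Regulators of small GTPases and actin had 14 regions at 13 of 95 listed genes, 13 of them with separate groups, against 3 genes with decreased regions. Their Tbx5G125R means ran from 18.4 to 43.4. Srgap2, a Rac GTPase-activating protein, was the highest, at 25.8 to 69.2 in Tbx5G125R against 0 to 6.39 in controls. Prex2, a Rac exchange factor, held 3.20, 3.41, 0, 4.15 and 0 in controls, but its Tbx5G125R libraries ran from 0 in replicate 4 to 74.4 in replicate 5 (median 29.5). This was the overlapping region of the list. Axon guidance genes had 3 regions and no decreased region. Slit2, a secreted guidance ligand, had 8.31 in control replicate 4 only and 33.4 to 89.9 in Tbx5G125R. Plxna4, a semaphorin receptor, rose from 1.12 to 38.6, while Nrp1, a coreceptor whose region was not called, had means of 3.98 and 29.3.

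Synaptic adhesion genes had 5 regions at 4 genes, all with separate groups, against 1 decreased region. Besides Negr1 and Lrrtm3 they comprised Nrxn3 (1.81 to 24) and Flrt2 (1.41 to 23.2). Listed cadherin genes had 4 regions, 3 of them with separate groups, at Cdh22, Fat4, Pcdh9 and Cdh5, with Tbx5G125R means from 21.9 to 28.8. That list also had 5 decreased regions at 4 genes. It did not include the protocadherin gamma cluster, whose overlapping genes share 1 further region with means of 1.39 in controls and 24.7 in Tbx5G125R.

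Listed ion channel genes with regions of this class had a single such region each. Kcnt2, Gria3, Grid1 and Clcn5 also had a listed gain of another class. Kcnj15, the inwardly rectifying channel Kir4.2, had a region that covers its promoter, with controls at 8.52, 4.09, 0, 0 and 0 and Tbx5G125R at 15.3 to 61.1 (median 41.8). Kcnt2 was the other of the 2 potassium channel genes among 87 annotated ones, and 3 had decreased regions. The weaker and stronger other gains held 4 and 1 regions of this list. Gria3, a subunit of glutamate receptors, held 0, 8.86, 4.50, 0 and 0 in controls and 9.97 to 108 in Tbx5G125R, which differed by a factor of over 10 between its own libraries. Trpm3 was again among the few regions with reads in every control library (1.12 to 3.90), with 16.2 to 77.4 in Tbx5G125R. Clcn5, Scn3a and Grid1 rose to means of 32.9, 23.5 and 22.3.

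Cyclic nucleotide and adrenergic genes had 6 of these regions, all with separate groups, and 13 decreased regions at 7 genes. Phosphodiesterases made up 4 of the 6. Pde1a, the calcium- and calmodulin-stimulated enzyme, held 0, 6.13, 6.75, 2.77 and 0 in controls and 38 to 87.7 in Tbx5G125R (median 45.2). Pde10a, Pde11a and Pde3a had Tbx5G125R means of 32.2, 29.9 and 23.5. The adrenergic receptor gene Adra1d had means of 3.60 in controls and 24.6 in Tbx5G125R. Calcium handling genes had 1 region, at the plasma membrane pump Atp2b1 (1.85 to 23.2), against 5 decreased regions at 3 genes. Sarcomere and costamere genes had 1, 37.4 kb from Fhl2 (2.33 to 29.1), against 6 decreased. Energy metabolism genes had 2, at Cs and Pdk4, against 4 decreased. The weaker and stronger other gains numbered 1 and 3 at calcium handling genes and 3 and 2 at sarcomere and costamere genes. They numbered 2 and 3 at cyclic nucleotide and adrenergic genes, and none were at energy metabolism genes. Of 51 genes that the study's text names, which were in part chosen on these samples, 6 had a region of this class and 7 a decreased one.

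Marker genes of cell types were counted too, since the nuclei had been sorted. None of 30 cardiomyocyte identity genes had a region of this class, and 5 of them had 6 decreased regions. Of 116 extracellular matrix and fibroblast genes, 8 had 1 region each, 7 of them separate, and 1 gene had a decreased region. Pdgfra, a receptor that marks fibroblasts, was the highest, with controls at 10.7, 0.681, 6.75, 5.54 and 0 and Tbx5G125R at 45.9 to 79.2 (median 50.9). A region 89.5 kb from Postn, a marker of activated fibroblasts, held 9.59, 0, 7.87, 0 and 0 in controls and 25.6 to 91.9 in Tbx5G125R. Endothelial markers had 2 regions, at Kdr (1.33 to 38.8) and at Cdh5 (1.09 to 21.9), where the groups overlapped, and 1 decreased region, at Erg (89.8 in controls and 23.3 in Tbx5G125R). Immune markers had 1, at F13a1 (1.05 to 23.0), and neuronal and glial markers 2, both at Mbp (2.58 to 27.7, with overlap, and 1.12 to 23.0), and neither list had a decreased region. Smooth muscle and epicardial markers had none of this class. The smooth muscle list had 2 decreased regions, both at Myocd, which is also on the list of cardiac factors and counted there. The table lists changed regions only, so marker levels in all nuclei, and with them the purity of the sort, were not analysed here, and the part of other cell types in these gains was not tested. In pooled nuclei more cells with the mark and more of the mark per cell cannot be told apart.

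The regions were mostly distal and narrow. The top bin lay in the body of a protein-coding gene in 331 regions (62.5%), within 12500 bp of one in 390 (73.6%) and over 100 kb from any in 64 (12.1%). The share in gene bodies was 60.5% and 60.9% in the weaker and stronger classes of gain and 74.8% in decreased regions. For 398 regions the nearest gene had a start site in the RefSeq table, at a median distance of 43.3 kb (interquartile range 11.3 to 115), against 38.1 kb, 31.5 kb and 37.8 kb in gains with a control mean under 1, gains with 5 or more, and decreased regions. Within 1 kb of such a start lay 6.28% of these regions, against 4.98%, 13.6% and 2.69%. Exons and introns were not analysed here. These shares were set side by side without a test.

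**Figure D5:**
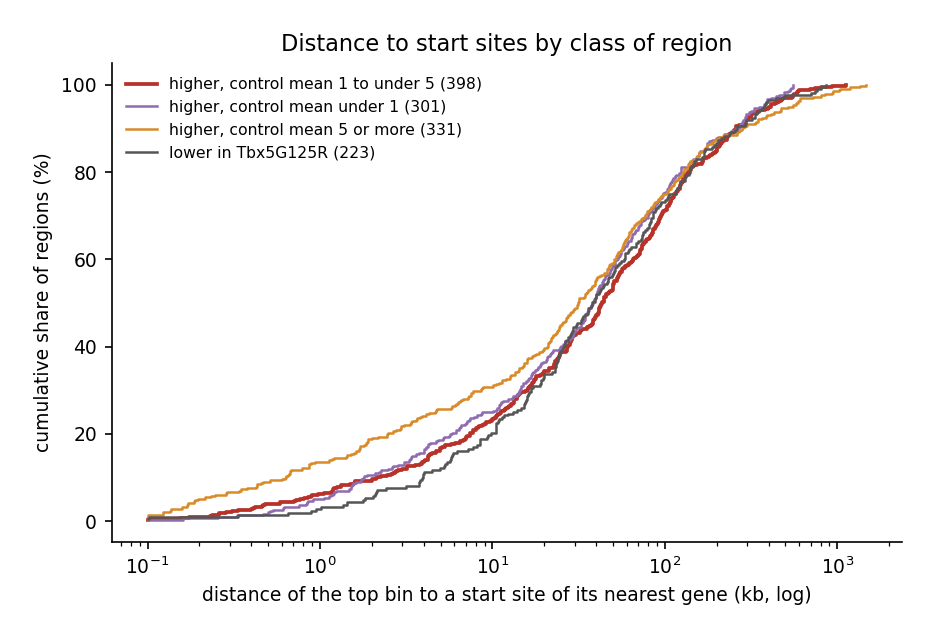
Cumulative share of regions (y axis, %) by the distance of the top bin to a start site of its nearest protein-coding gene (x axis, kb, logarithmic, values under 0.1 drawn at 0.1), for regions whose gene has a start site in the RefSeq table. The 398 regions described here (red) run below the gains with a control mean of 5 or more (orange) near start sites, with medians of 43.3 and 31.5 kb.

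At least 14 top bins touched a promoter window, 11 of them of a protein-coding gene. Besides the 5 printed, they included Tnfrsf19, a receptor of the tumor necrosis factor family (control mean 4.73, Tbx5G125R 42.5), and the predicted gene Gm9997, whose bin lies in the body of Nin, a centrosomal protein gene (3.85 to 56.6). Ubtf, a transcription factor of ribosomal RNA genes, overlapped between genotypes, with 14.9 in control replicate 1 and 14.3 in the lowest Tbx5G125R library. At the promoters printed above, the Tbx5G125R means were 56.9 at Pdgfra, 56.0 at Svep1, 32.4 at Ddx18, 32.0 at BC052040 and 20.5 at Dop1a. The 3 with a T-box core thus spanned much of the range of the 5.

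The median width of a region was 2250 bp, between 1750 bp for gains with a control mean under 1 and 4000 bp for gains with 5 or more, and below the 6000 bp of decreased regions. Width is that of the whole listed region, while levels are given for its top bin only, so width does not measure the extent of the change. Its relation to signal was not tested. The widest were at Cyria, a regulator of Rac (66000 bp), Nrp1 (43250 bp) and Itm2b, a membrane protein gene (29500 bp). At Cyria controls held 1.07, 2.04, 3.37, 0 and 0 in the top bin and Tbx5G125R 27.9 to 104 (median 54.8). Itm2b had a second region 24.5 kb away, at a control mean of 1.53 and a Tbx5G125R mean of 27.7.

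The regions were scattered over the genome. Only 7 lay within 12500 bp of another of them, and 24 within 12500 bp of another gain. The 466 regions with a gene within 100 kb fell on 467 genes, since 8 lay in or beside more than 1 gene. Of these genes 442 had 1 region, 23 had 2 and 2 had 3. The pair with 3 were Ctnna3 and Bicc1, an RNA-binding regulator of cilia-dependent patterning. In Ctnna3 the other regions rose from 1.77 ± 1.55 to 28.3 ± 25.5 and from 2.68 ± 3.25 to 26.6 ± 13. Those of Bicc1 rose from 1.79 to 28.0, from 1.18 to 24 and from 4.72 to 39.1, and all its Tbx5G125R libraries exceeded all its controls. By chromosome the share of listed regions that belonged to this class ran from 24.6% (chromosome 2) to 42.6% (chromosome 10, 43 of 101), with both loci on the latter.

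Gains of this class, like the other gains, rarely lay beside losses. A gene with a decreased region was shared by 10 of the 530 regions (1.89%), and 81 shared a gene with another class of gain. In the weaker and stronger other gains 1.29% and 2.37% shared a gene with a decreased region. A decreased region lay within 12500 bp of 0.189% of these regions, against 0% and 0.237% of those gains. Only the region at Nudt3 lay within 12500 bp of a decreased region, at 2.25 kb. Its controls held 0, 6.81, 10.1, 5.54 and 0 and Tbx5G125R 17.9 to 57.2 (median 29.3), while the adjoining region was at 146 ± 41.0 in controls and 73.9 ± 14.1 in Tbx5G125R, which the count test did not call. At Prkch, a protein kinase C gene, a region rose from 3.43 ± 6.49 to 55.2 ± 21.3, 101250 bp from one that fell from 236 ± 72.9 to 107 ± 14. Emilin2, an elastic fibre gene, had a gain from 4.43 to 37.0 and a loss from 416 to 128. Zhx2 had 2 gains (3.73 to 38.1 and 1.21 to 22.1) and a decreased region with means of 46.0 and 13, also not called by the count test. The rule keeps the control mean of gains of this class under 5, and the lowest control mean of any decreased region was 25.2. The higher control level of the decreased regions was therefore fixed by the choice. In these 4 genes the decreased region also had the higher Tbx5G125R level, except at Zhx2.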

How the data were processed

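CUT&RUN libraries for H3K27ac were sequenced from PCM1-sorted atrial nuclei of 5 control and 6 Tbx5G125R mice. Per the submitters' processing notes, BWA, bedtools and DESeq2 were used with mm10, with tool versions not given in the sources used here. The authors deposited 1 table of the regions that passed their test, with the normalised signal of each library in the most significant 500 bp bin, which is reads divided by a size factor. The table's fold change and adjusted p columns hold the authors' own comparison and were not used. Within a library all values were multiples of what 1 read is worth, and whole reads were recovered for 100% of the values (tolerance 0.05 reads). Top bins held 27118 to 161738 reads per library, which limits precision at low levels. Floors (3 reads) cover counting error only, since amplified fragments are not independent molecules. The Wilson intervals are on shares of promoters that hold a motif and do not measure reads.

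Groups followed the labels. Means, SDs and ratios were computed on the deposited values. Reads were tested with edgeR 4.0.16 (quasi-likelihood, deposited size factors, R 4.3.3), tested on simulated data first, with Benjamini-Hochberg adjustment over the highest region number, 126854, and DESeq2 1.42.0 as an alternative. This count test is a check on single bins, and the deposited normalised values remain the measure reported. A bin was assigned to the nearest protein-coding gene of RefSeq GRCm38.p6 within 100 kb. The RefSeq promoter table covers 17469 of 21900 protein-coding genes and no promoter of chromosome 18, so promoter counts are lower bounds. The 10 motifs were searched on both strands. The members and 22 gene lists were chosen with earlier results of these data known. Named were the 10 members with the highest Tbx5G125R mean, the next 6 by ratio, 2 on each side of each limit, genes with 3 or more regions, up to 4 members per list, 8 at promoters, 6 with overlapping groups, the 3 widest and 6 beside decreased regions. Other members named in counts, and the microRNA region, were chosen after their values had been seen. A few regions that these rules select are not reported here. Alternatives were other factors and filters, other rules for membership, leaving out libraries and a block on replicate numbers. Regions that did not pass the authors' test were not analysed here.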

Additional observations from a re-analysis of the deposited data

Results flagged for a closer look

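Of 176 groups of library values examined for the named regions, 29 had 1 library far from the others by Dixon's criterion. The usual rate of about 1 in 20 by chance does not apply to these sparse reads. A control group with reads in 1 library only is always flagged, so nothing is read from the number of flags. Among controls there were 21, all with 1 library above the rest. The outlying control value was 12.8 at Negr1 and at Dppa4, 14.3 in the region on chromosome 4 without a gene, 12.3 at Sec16b, 17.0 at Golim4, 12.46 at Il1r1, 12.9 at Ctnna3 and Lrrtm3, 14.9 at Prkch, 15.2 at Sox9, 12.4 at Cks2 and 11.7 at Spry1. It was 5.33 at Wdfy4, 5.62 at Galnt9, 5.45 at Svep1, 5.54 at Prr23a1, 8.31 at Slit2, 9.69 at Gli2, 9.54 at Ddx18 and 6.81 at Atp2b1. At the lower limit of the rule it was 4.09 at Adamtsl3 and 3.90 at Kcnt2.

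In Tbx5G125R the highest library stood apart at Nfib (190), Kdr (91.6), Pde1a (87.7), Bicc1 (80.9), Arhgap23 (78.8) and Auts2 (58.0), and the lowest at Pom121l12 (7.26). The median of replicate 5 over the 530 regions, 32.8, also stood apart from those of the other Tbx5G125R libraries. No cause was tested.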

How the results depend on the processing

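Leaving out each library in turn gave 479 to 532 regions, of which 431 to 530 belonged to the 530, with median control levels of 2.13 to 2.31, median Tbx5G125R levels of 26.8 to 29.2 and median ratios of 12.1 to 13.6. The count test then called 419 to 482 of the 530 regions higher, against 1016 to 1144 of the 1652 listed bins. In every such fit 341 regions were called, while 491 to 509 had separate groups. Without the shallowest library of each genotype the median Tbx5G125R level was 25.6 and the median ratio 11.5. With TMM factors the medians were 5.46 in controls and 21.0 in Tbx5G125R, and the ratio was 3.88. Of the 530 regions 9 were then called higher, against 146 of all 1652 listed bins, and 81 had separate groups. The listed bins are mostly gains, and the part of this in the TMM result was not tested. Membership by the median over libraries gave 308 regions with a Tbx5G125R level of 31.4 and a ratio of 10.7, and control means of 2 to under 4 gave 231 with a ratio of 11.4. With 1 added to both means the ratio was 9.13. Regions with reads in at least 2 control libraries, a limit chosen after the data were seen, numbered 500, with a ratio of 13.1. The share with a gene was 73.6% within 12500 bp and 87.9% within 100 kb.

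Libraries of the 2 genotypes share replicate numbers, but same-numbered libraries did not deviate together (correlations of -0.15 to -0.02). With 5 such pairs, over bins chosen on the genotype difference, this cannot settle whether the numbers mark shared processing. With the replicate block, on the 5 shared numbers, 121 of the 530 regions were called higher, against 685 of the 1652 listed bins. That fit had fewer libraries and fewer residual degrees of freedom, and the part of these in the lower count was not tested. DESeq2 called 529 of the 530 (1337 of the 1652 listed bins) and median-of-ratios factors 530 (1313). With edgeR's filter on low counts 493 of 512 tested regions were called, against 1007 of 1485 tested listed bins. No result reversed. Control levels rest on a median of 11 reads per region, which limits every ratio.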
